A study of Mus musculus with 2 samples.

Results

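Desmosome component genes were followed in peeled mouse epidermis whose keratinocytes are labelled as lacking IκBζ, a nuclear IκB protein encoded by Nfkbiz, against epidermis of a control genotype. The genes were chosen by name: the desmosomal cadherins Dsg1a, Dsg1b, Dsg3, Dsc1, Dsc2 and Dsc3, the plaque proteins Jup, Pkp1 and Pkp3, and the plakin Dsp, 10 genes in all. Probes were matched to 9 of them, among 18206 genes named on the array, and all 16 of these probes were well above background on both arrays. For Dsc3 no probe was matched, and it was not analysed here.

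The knockout sample came from Nfkbiz flox/flox mice carrying K5-cre, a transgene in which the keratin 5 promoter of basal keratinocytes drives Cre recombinase. Epidermal cells that neither have keratin 5 activity nor descend from cells that had it are not the direct target of this transgene. The control sample came from Nfkbiz flox/flox mice without the transgene, so both genotypes carry the floxed alleles. Both were in the steady state, per the labels, and age, sex and the number of mice are not given in the sources used here. Each genotype was hybridised to 1 one-colour Agilent array, so there was no replicate check, no difference was tested, and a gene was called only where it differed by 2-fold or more.

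Desmosomes are the spot-like junctions that hold keratinocytes together. Desmogleins and desmocollins span the gap between cells, plakoglobin (Jup) and plakophilins bind their tails inside the cell, and desmoplakin (Dsp) ties the plaque to keratin filaments. In mouse epidermis desmoglein 3 is strongest in the deep layers and desmoglein 1 and desmocollin 1 in the upper ones, and pemphigus autoantibodies bind desmogleins 1 and 3. Mice that lack desmoglein 3 lose hair from resting follicles and develop erosions of the mouth.

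Among the measured desmosome genes 1 stood far from the others. Dsg3 was 4.86-fold lower on the knockout array, while the other 8 genes lay within 1.5-fold of the control array, between -0.31 and 0.45 on the log2 scale. Such small differences were common, since only 10.1% of all measured genes were at least 1.5-fold higher and 13.2% at least 1.5-fold lower. Hence 1 of 9 genes was at least 2-fold lower and none at least 2-fold higher. Of the 12409 genes with a measured signal on each array, 4.4% were lower by 2-fold or more and 3.02% higher by as much, so a count of 1 in 9 describes Dsg3 and not the group. The median difference of the 9 genes was -0.07, beside -0.04 for all measured genes.

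Values are given as processed signals, meaning spot brightness after background subtraction on a linear scale, before any scaling between arrays. Differences are knockout minus control on the log2 scale after each array was divided by its 75th percentile of signal, which was 239 on the knockout array and 205 on the control array. The error after ± is a standard error from the scanner software's error model. For these probes that model set the error of a signal at 10% to 11.8% of it, so it covers technical error within the arrays and not differences between mice. Signals of different probes cannot be ranked against each other, so only differences are compared between genes.

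**Figure D1:**
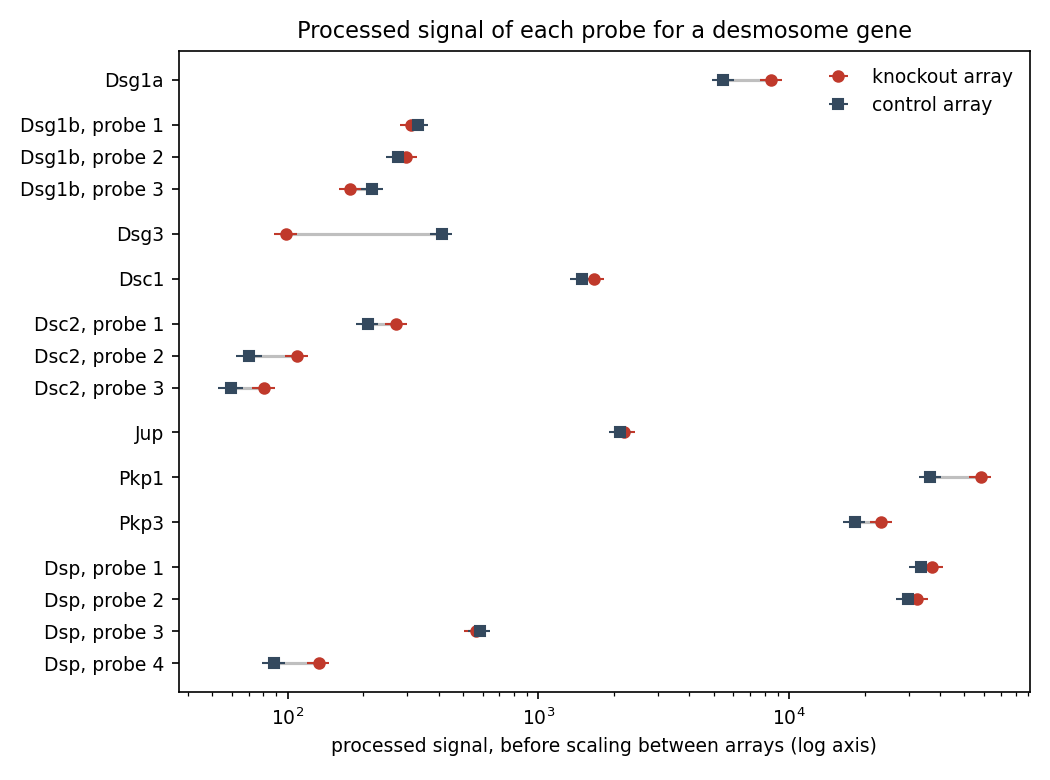
Processed signal (log axis) of each of the 16 probes for desmosome genes on the knockout array (circles) and the control array (squares), with horizontal bars for the scanner software's error of each signal. Dsg3 has the widest gap, 98.8 on the knockout array and 412 on the control array.

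Desmoglein 3, the deep-layer desmosomal cadherin, was read by 1 probe. Its signal was 98.8 on the knockout array and 412 on the control array, a log2 difference of -2.28 ± 0.21 with a 95% error interval of -2.70 to -1.87. Of the 12409 measured genes, 50 were lower still by this difference. Both signals were clear of background, at 8.17 times the lowest signal called well above background on the knockout array and 32.4 times that of the control array. The spot was not near any non-uniform spot, and the 23 measured spots around it had a median difference of -0.01, with 2 of them at least 2-fold lower. The difference was -1.96 under median scaling and -1.43 under normexp background correction, and was past 2-fold under every scaling tried.

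Desmoglein 1 has 3 closely related copies in the mouse, of which Dsg1a and Dsg1b were measured. The Dsg1a probe gave 8480 on the knockout array and 5470 on the control array, a difference of 0.41 ± 0.20. The brightest Dsg1b probe gave 311 on the knockout array and 330 on the control array, a difference of -0.31 ± 0.20, and the other Dsg1b probes gave -0.12 and -0.51. All 3 Dsg1b probes thus had a lower difference than Dsg1a, and the gap between the genes was 0.72 ± 0.29. These near-identical paralogs can bind each other's probes, so which copy each signal reads is uncertain. Neither gene was 2-fold apart between the arrays.

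Desmocollin 1, the upper-layer desmocollin, had a signal of 1660 on the knockout array and 1490 on the control array. Its difference was -0.07 ± 0.20, within the standard error. Desmocollin 2, the desmocollin found most widely across tissues, was read by 3 probes, with signals of 271, 109 and 80.5 on the knockout array and 209, 70.4 and 59.4 on the control array. The differences were 0.15, 0.41 and 0.22, all above 0, and the 95% error interval of each included 0.

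None of the 4 plaque genes was 2-fold apart, and their differences ran from -0.17 to 0.45. Plakoglobin, which binds cadherin tails in desmosomes and in adherens junctions, had a Jup signal of 2200 on the knockout array and 2120 on the control array, a difference of -0.17 ± 0.20. Plakophilin 1, whose loss in people causes a skin fragility syndrome, had a Pkp1 signal of 58100 on the knockout array and 36600 on the control array. This was the highest difference of the 9 genes, 0.45 ± 0.20, with an interval of 0.05 to 0.85. Plakophilin 3, expressed in nearly all epithelial layers, had a Pkp3 signal of 23300 on the knockout array and 18300 on the control array, a difference of 0.13 ± 0.20.

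Desmoplakin, the plakin that links the plaque to keratin filaments, was read by 4 probes. The brighter Dsp probes gave 37200 and 32500 on the knockout array, against 33500 and 29700 on the control array. Their differences were -0.07 and -0.09. The dimmer probes gave 563 and 133 on the knockout array, against 585 and 88.5 on the control array. These differed by -0.28 and 0.37, so the sign was not shared by all Dsp probes. Across the 4070 genes with several measured probes, the median SD between probes of a gene was 0.19.

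**Figure D2:**
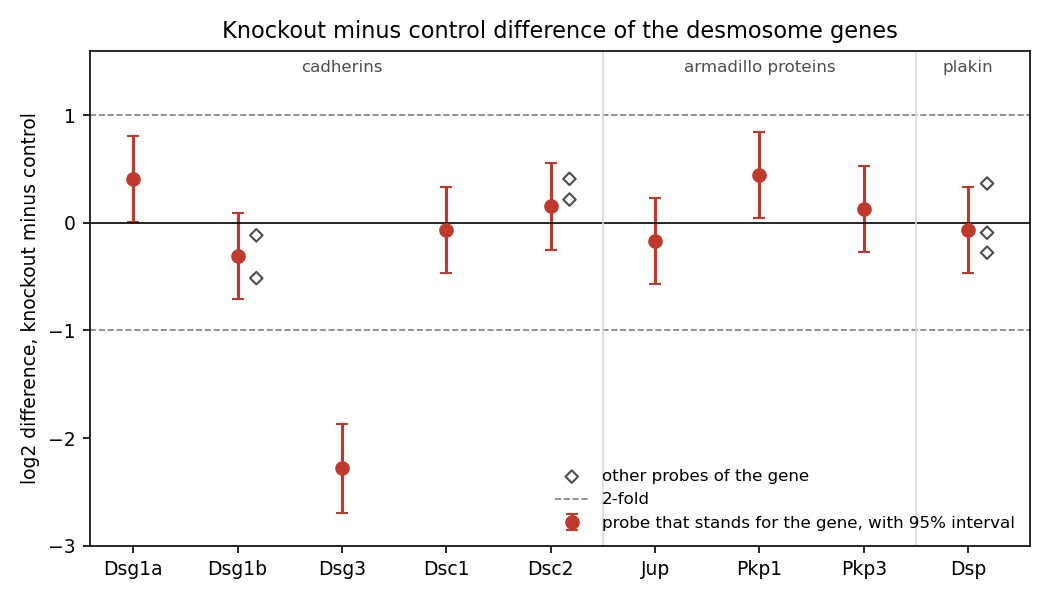
Log2 difference, knockout minus control, of each desmosome gene, with the 95% interval from the scanner software's error model (circles and bars) and the other probes of the gene (diamonds). Dashed lines mark 2-fold. Dsg3 lies at -2.28, and the other 8 genes lie between -0.31 and 0.45.

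By the probe that stood for each gene, 3 of the 9 genes had an error interval that excluded 0. These were Dsg3 below it and Dsg1a (0.01 to 0.81) and Pkp1 (0.05 to 0.85) above it. The share of all measured genes with such an interval was not counted, so this count is not a result about the group. Of the 12409 measured genes, 2110 were higher than Dsg1a and 1891 higher than Pkp1, so differences of their size were common. The dimmest Dsg1b probe also had an interval that excluded 0, from -0.92 to -0.11. The signs of small differences depended on scaling. Median scaling raised every gene by 0.32, which brought the median of all measured genes to 0.28. Under it 8 of the 9 genes were above 0, with Dsg3 the exception, but the number above the median gene was 4 of 9, as under the 75th percentile. Dsg1b and Jup changed sign under median scaling alone, Dsc1 and Dsp under other scalings too, while Dsg1a, Dsc2, Pkp1 and Pkp3 stayed above 0 and Dsg3 stayed below 0 under all 5. Dsg1a ranged from 0.41 to 0.73 and Pkp1 from 0.45 to 0.76. A gap between genes on the same arrays is the same under the 75th percentile and the median. The gap between Dsg3 and the next lowest gene, Dsg1b, was 1.97 ± 0.29, a 3.93-fold unequal change, and that between Dsg3 and Pkp1 was 6.62-fold. Under normexp these gaps were smaller, at 2.23-fold and 4.11-fold.

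**Figure D3:**
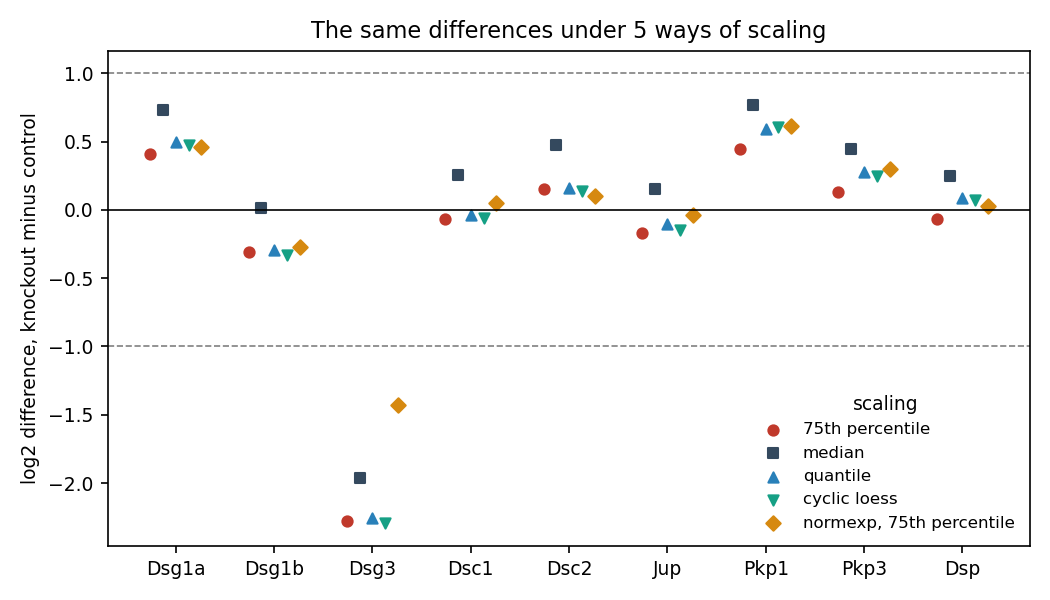
Log2 difference, knockout minus control, of each desmosome gene under 5 ways of scaling the arrays (symbols). Dashed lines mark 2-fold. Dsg3 stays below -1 under all 5, between -2.29 and -1.43, and no other gene reaches 2-fold.

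The measured cadherin genes are neighbours in a single cluster on chromosome 18, in the order Dsc3, Dsc2, Dsc1, Dsg1c, Dsg1a, Dsg1b, Dsg4, Dsg3 and Dsg2. Along it, differences were 0.15 for Dsc2, -0.07 for Dsc1, 0.41 for Dsg1a and -0.31 for Dsg1b, then -2.28 for Dsg3. Dsg2, a desmoglein of simple epithelia and heart, follows Dsg3 and gave 330 on the knockout array and 411 on the control array, a difference of -0.54 ± 0.21. Its other probes measured on both arrays gave -0.64 and -0.67, so all 3 were below 0. Dsg4, the desmoglein of the hair shaft, lies before Dsg3 and was not well above background on either array. The nearest measured cadherin genes on either side of Dsg3, Dsg1b and Dsg2, were thus within 2-fold of the control array.

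**Figure D4:**
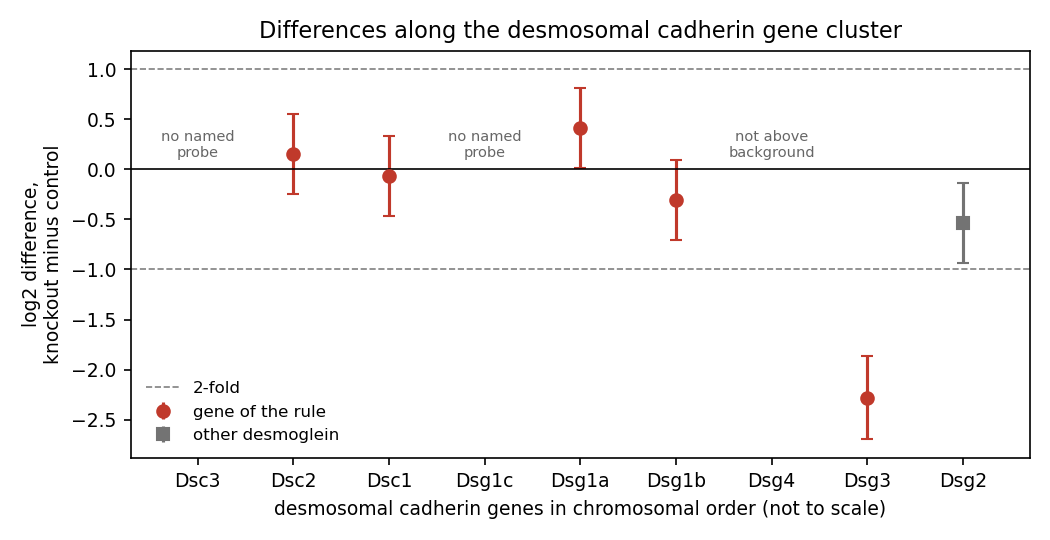
Log2 difference, knockout minus control, with 95% error interval, of the desmosomal cadherin genes in chromosomal order, not to scale. Circles are genes of the chosen list and the square is Dsg2. Dsg3 at -2.28 stands between Dsg4, not above background, and Dsg2 at -0.54.

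Other genes of the desmosome and of the plaque beneath the cornified envelope were close to the control. Of 10 listed, 8 were measured on both arrays and none was 2-fold apart, with a median of -0.09. The members furthest from 0 were Dsg2 and Kazn, which encodes a periplakin-binding protein, at 0.47 ± 0.20. Pkp2, the plakophilin of heart and simple epithelia, differed by 0.19 ± 0.30, and Perp, a membrane protein needed for desmosome assembly in stratified epithelia, by -0.17 ± 0.20. Kazn probes disagreed, at 0.47, -1.25 and 1.11.

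The keratins that desmosomes anchor were also near the control. All 6 measured of 7 listed were within 2-fold, with a median of -0.15. Krt2, an upper-layer keratin, gave 298 on the knockout array and 185 on the control array, a difference of 0.47 ± 0.21. The basal keratin genes Krt14 and Krt5 differed by -0.24 and -0.16, and Krt10, the suprabasal partner of keratin 1, by -0.16, each with a 95% error interval that included 0.

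Adherens junctions, the actin-linked junctions beside desmosomes, had 1 of 12 genes at least 2-fold lower, none higher and a median of -0.29. The median of all measured genes was -0.04. Median scaling raised these medians to 0.03 and 0.28, so the list stayed below the median gene. Under every scaling tried, 3 of the 12 genes lay above the median gene. The gene at least 2-fold lower was Vcl, encoding the actin linker vinculin, with 654 on the knockout array and 1140 on the control array. Its difference was -1.02 ± 0.20. It was under 2-fold with median scaling and normexp, at -0.70 and -0.90. Cdh3, encoding the P-cadherin of basal cells and hair matrix, differed by -0.93 ± 0.20, from signals of 390 on the knockout array and 637 on the control array. Afdn, encoding the nectin-binding protein afadin, differed by 0.97 ± 0.20 and passed 2-fold under each of the other 4 scalings, for example at 1.29 under median scaling. Nectin3, one of the nectins that afadin binds, differed by 0.46 ± 0.20. No gene of this list lay as low as Dsg3.

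Cell type markers are given beside Dsg3 because in a bulk sample fewer cells of a type and less RNA per cell cannot be told apart. Keratinocyte layer markers showed no 2-fold difference. The 6 basal markers had a median of -0.25, from -0.98 for the integrin gene Itga6 to -0.14 for Krt15, with summed signals, before scaling between arrays, of 181480 on the knockout array and 180370 on the control array. Such sums follow the brightest probes, and all are given before scaling. None of the basal markers lay above the median gene, except 1 under cyclic loess. The 6 suprabasal markers had a median of -0.09 and the 5 measured granular markers -0.10. Summed suprabasal signals were 206608 on the knockout array and 191115 on the control array. For granular markers the knockout array gave 76560 and the control array 69530. Defining keratinocyte markers of each layer were thus well above background on both arrays.

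Hair follicle markers did differ along with Dsg3, a gene also active in follicles. Of 5 follicle stem cell and upper follicle markers, 4 were measured on both arrays and 3 were at least 2-fold lower, namely Plet1 at -3.12, Lhx2 at -2.07 and Cd34 at -1.42, while Krt79 differed by -0.02. Their summed signals were 25260 on the knockout array and 46147 on the control array, of which Krt79 made up 21300 and 18500. Lgr5 was well above background on the control array alone, with 12.4 on the knockout array and 48.3 on the control array. All 4 inner root sheath markers were at least 2-fold lower, with a median of -1.32 and summed signals of 14680 on the knockout array and 31270 on the control array. Of these 4, 2 stayed past 2-fold under median scaling and 3 under normexp. The part of these follicle differences in the Dsg3 difference was not tested.

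Markers of other cells in the peeled sheet were uneven too. All 3 measured melanocyte markers, 3 of 5 skeletal muscle markers and all 3 measured red blood cell markers were at least 2-fold lower, with medians of -2.05, -1.74 and -3.94. The other measured muscle markers, Mylpf (-0.04) and Atp2a1 (-0.06), were close to the control. Under normexp the medians were -1.34, -0.80 and -2.50, and the melanocyte gene Tyrp1 (-0.94) and the muscle gene Tnnt3 (-0.80) were no longer 2-fold lower. Summed melanocyte signals were 466 on the knockout array and 1727 on the control array. For muscle the knockout array gave 350.3, of which Mylpf made up 200 and Atp2a1 87.1. The control array gave 839, with 176 and 77.9 from these genes. For red blood cells the knockout array gave 2106 and the control array 18303. Fibroblast markers had a median of -0.32 and none 2-fold apart. T cell markers had a median of 0.38 with 1 of 5 at least 2-fold higher, the T cell receptor subunit gene Cd247 (1.20, its other probe at -0.32, and 0.76 under normexp). Langerhans cell markers had a median of 0.68 with 1 of 5 at least 2-fold higher, the langerin gene Cd207 (3.14-fold). Of 4 endothelial markers, none was measured on both arrays. Their part in the Dsg3 difference was not tested.

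**Figure D5:**
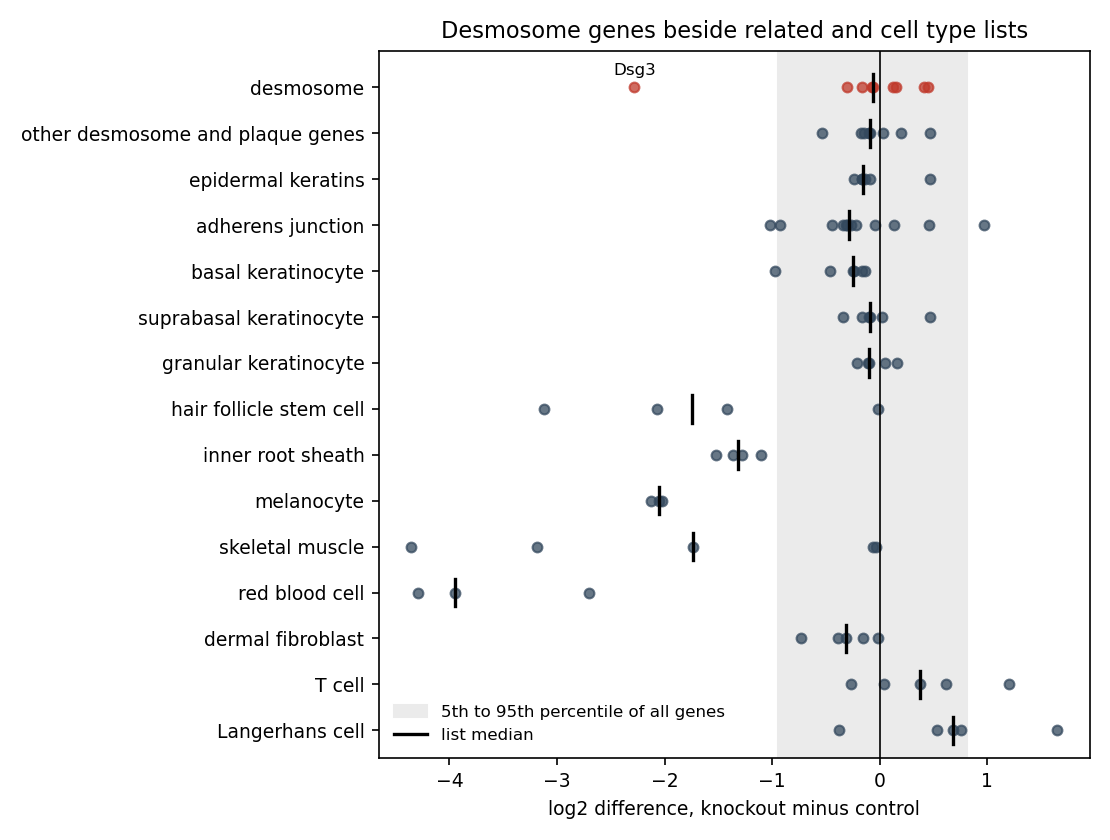
Log2 difference, knockout minus control, of each measured gene (dots) in the desmosome list, in 3 related lists and in cell type marker lists, with list medians (black bars) and the 5th to 95th percentile of all genes shaded, from -0.95 to 0.81. Dsg3 lies outside the shaded range and the other desmosome genes within it.

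The targeted gene was read by 1 probe. Nfkbiz gave 1760 on the knockout array and 3100 on the control array, a difference of -1.04 ± 0.20 (-0.72 under median scaling). The deleted exons and the place of that probe are not given in the sources used here, and a probe outside the deleted part checks nothing. On both arrays 56.3% of probes were well above background, and none was saturated. Of genes 2-fold apart, 375 were higher and 546 lower, so 40.7% were higher, against 76.3% (952 higher and 295 lower) under median scaling. With 1 array per genotype, differences between mice could not be estimated, and genotype cannot be told apart from the single sample.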

How the data were processed

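Skin was incubated in 3.8% ammonium thiocyanate for 30 min and the epidermis lifted off with forceps, per the labels' protocols. The authors deposited scanner files with intensity values on a linear scale for 1 Cy3 array per genotype, read out by Agilent Feature Extraction 10.7.3.1 for a design annotated on mm9. Per the file headers, the software subtracted background and removed spatial trends in each array. Both arrays were on the same slide and scanned on the same day. The authors also deposited a log2 table whose values sum to 0 for each probe over the 2 arrays. Over 41134 probes its knockout minus control difference matched that of the scanner files (r = 1.00, median offset -0.01), so its direction and scale are settled but levels cannot be had from it.

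Control spots and spots marked as outliers were left out, and spots of a probe were averaged. Log2 signals were centred on each array's 75th percentile. Probes well above background and not saturated counted as measured. Probes were named through RefSeq accessions in a GRCm38.p6 gene table, used for names and gene order only, which named 26690 of 41174 probes (64.8%). A gene was represented by its brightest measured probe. The named genes were all desmosome members, Nfkbiz, and members of the related lists past 2-fold or among the 4 furthest from 0. Dsg4 and the single cell type markers named were chosen after their values were seen. Genes were not named by likeness of pattern, since 2 arrays give 1 difference per gene. The members and lists were chosen with earlier results of these data known.

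Other settings tried were cyclic loess, quantile normalization, median scaling, normexp with an offset of 50 (limma 3.58.1, R 4.3.3), the authors' log2 table, the mean over probes, thresholds of 1.5-fold and 3-fold, other background filters, and leaving out probes near non-uniform spots. Normexp used median spot signals, and spots with a non-uniform local background were left out of it after the data were seen. The rest used pandas 2.3.3, numpy 2.4.6 and matplotlib 3.10.9 in Python 3.11.15, and the calling code was tested on simulated data.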

Additional observations from a re-analysis of the deposited data

How the results depend on the processing

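No paired analysis was possible because there was only 1 array per genotype. Under the 9 alternatives called at 2-fold, the count of desmosome genes lower stayed at 1 and the count higher at 0. At thresholds of 1.5-fold and 3-fold these counts were also 1 and 0. Of 81 values of single desmosome genes recomputed over 9 alternatives, 80 moved by less than their 95% error interval, and the exception was Dsg3 under normexp, at -1.43. Many of these values could not move. All 16 probes were measured on both arrays and none lay near a non-uniform spot, so the background filters and that exclusion left them unchanged. Averaging over probes leaves single-probe genes unchanged, median scaling adds the same 0.32 to each gene, and the authors' table holds nearly the same differences. The median of the 9 genes was 0.25 under median scaling, which raises every gene alike. Over all genes, 375 were higher and 546 lower. Median scaling gave 952 higher and 295 lower, and normexp gave 183 higher and 233 lower. A threshold of 1.5-fold gave 1254 higher and 1639 lower, and 3-fold gave 105 higher and 188 lower. Counting genes measured on either array gave 570 higher and 831 lower, and dropping the background filter gave 667 higher and 1422 lower. The changes under median scaling, the thresholds and the filters follow from how each is built. Normexp adds an offset of 50 to each corrected signal before the logarithm, which by construction shrinks differences of dim probes. How much of its change came from the offset was not tested. Single-probe genes, Dsg3 among them, have no second probe to set beside the first, and no alternative here stands in for a replicate.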

Other observations

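Probes of the same gene did not always move alike among the related genes. The 3 measured probes of Kazn gave 1280, 313 and 109 on the knockout array and 794, 637 and 43.4 on the control array, with differences of 0.47, -1.25 and 1.11. The 2 bright probes of Afdn gave 5050 and 851 on the knockout array and 2210 and 391 on the control array, with differences of 0.97 and 0.90, while its dim probes gave -0.05 and -0.48. Both Vcl probes were lower, at -1.02 and -0.90, and both Krt2 probes were higher, at 0.47 and 0.77. These genes were chosen after their values were seen.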
